A study of Oryza sativa with 32 samples.

Results

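The genes described here encode 6 proteins at the start and at the branch point of chlorophyll synthesis in rice, and they were taken by identifier: HEMA1 (OS10G0502400), GSA (OS08G0532200), CHLH (OS03G0323200), CHLD (OS03G0811100), CHLI (OS03G0563300) and CHLM (OS06G0132400). All 6 of these rows were found among the 37829 genes of the count table, and all 6 passed the filter on low counts that left 25766 genes for testing. RNA was sequenced from panicles, the flowering heads, of Oryza sativa IR64, labelled as a land variety, from untreated plants of a field plot at IRRI in the Philippines in the dry season of 2014. All plants were at 50% flowering, and 8 times of one day were sampled with 4 libraries each (32 libraries): dawn, 3 light times (3.5, 7 and 10.5 h from dawn), dusk, for which no hour is stated, and 3 night times (14, 17.5 and 21 h). Whether libraries sharing a time are from different plants is not stated, so p-values here reflect only how far these samples vary, and that variation may be technical.

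Chlorophyll is a tetrapyrrole made in plastids. Glutamyl-tRNA reductase (HEMA1) and glutamate-1-semialdehyde aminotransferase (GSA) make 5-aminolevulinate, the precursor that heme and chlorophyll share. Several shared steps lead from it to protoporphyrin IX, where magnesium chelatase inserts magnesium and so starts the chlorophyll branch. CHLH is the large chelatase subunit that binds the porphyrin, CHLI is its ATPase subunit, and CHLD joins CHLI in the complex that drives the insertion. CHLM then adds a methyl group to magnesium-protoporphyrin IX. In Arabidopsis leaves, the reductase and the chelatase are known as the main points of control, and light and the clock act on the transcripts of HEMA1 and CHLH. The outer organs of a rice spikelet, the lemma and palea, are green and hold chloroplasts.

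Totals ran from 10.8 M to 43.9 M counts per library, with a median of 16.8 M, and the lowest count of any of the 6 genes in any library was 134 (CHLM). All 12 floral organ identity genes used to check the tissue were detected, with a summed level of 2410 to 4012 CPM per library. Levels are CPM, counts scaled by library total and here also by TMM factors, and means are given ± SD with n = 4. No transcript lengths were used, so the levels of different genes are not compared with each other. In a whole panicle, fewer green cells and less RNA per green cell cannot be told apart.

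The first question was whether these transcripts change over the day. All 6 genes did in the test over the 8 times, but by very different amounts and at different hours. CHLH ranged 15.3-fold between its highest and lowest time, HEMA1 3.76-fold and CHLM 2.52-fold, while GSA (1.88-fold), CHLI (1.64-fold) and CHLD (1.60-fold) stayed within narrow ranges. HEMA1, CHLH and CHLI were highest in the hours from dawn to 3.5 h, CHLM and GSA at 10.5 h and CHLD at 14 h in the night. The test was edgeR's quasi-likelihood F test with Benjamini-Hochberg adjustment at 0.05 over all tested genes, and it called 42.1% of those genes, so a call by itself is common in this series. On the log2 scale, the range of CHLH was wider than that of 98.6% of tested genes, that of HEMA1 was at the 80.9th percentile and that of CHLM at the 69.6th. GSA (percentile 50.4), CHLI (34.2) and CHLD (34.0) lay in the middle or lower part of all tested genes. This ranking takes in genes of every level, and genes of like level were not compared.

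**Figure D1:**
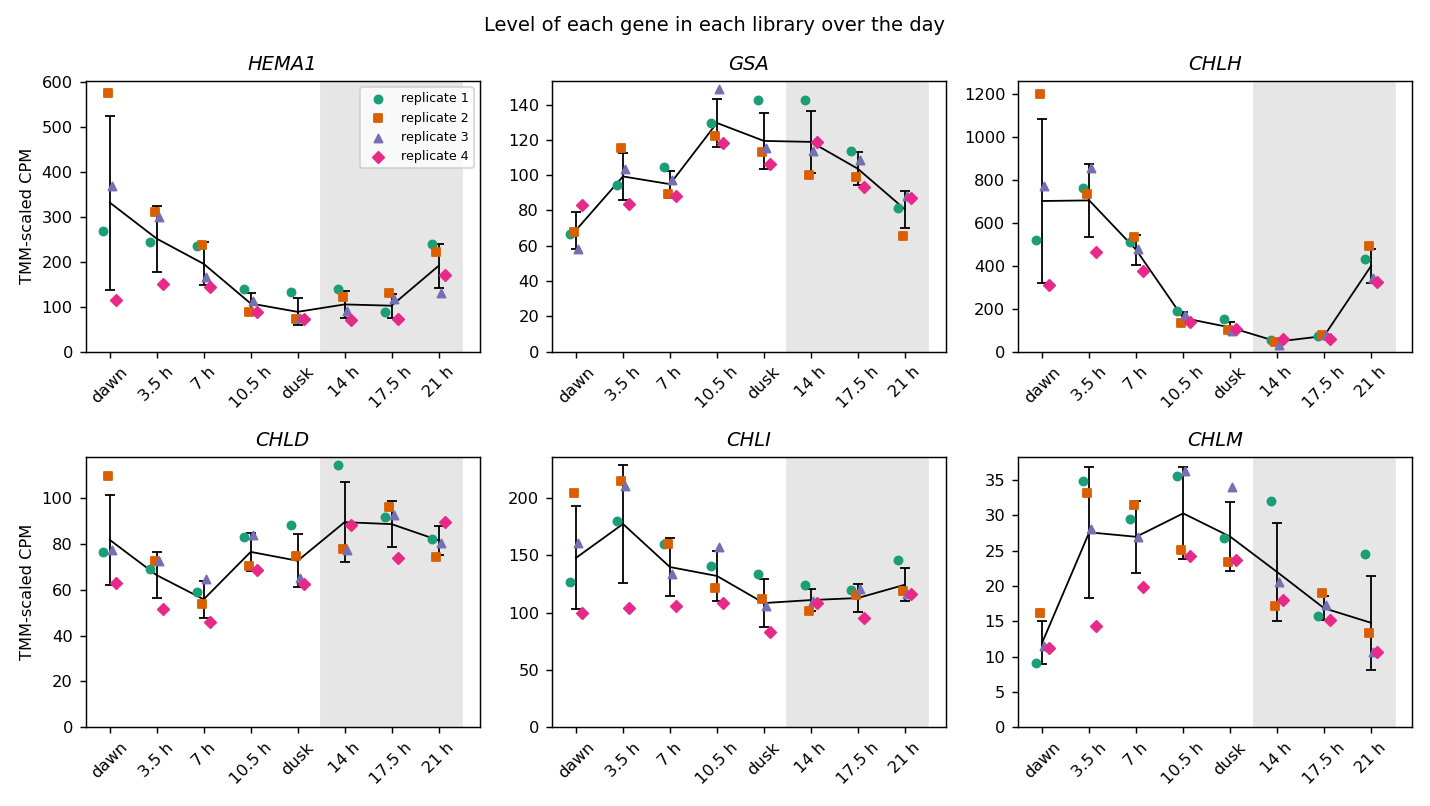
TMM-scaled CPM of each gene (vertical axis, from 0) at the 8 times of sampling, one panel per gene. Each marker is 1 library, with shape and colour by replicate number, the line joins the means, the bars are SD (n = 4), and the grey band covers the 3 times after dusk. The mean of CHLH is highest at 3.5 h (705 CPM) and lowest at 14 h (46.2 CPM), while CHLD has its highest mean, 89.6 CPM, at 14 h.

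The first enzyme, HEMA1, was a morning transcript. It had 268, 576, 367 and 114 CPM in the 4 dawn libraries (331 ± 194 CPM) and at 243, 311, 299 and 150 CPM at 3.5 h (251 ± 73.7 CPM). The dawn libraries thus differed 5.07-fold among themselves, and the lowest of them fell within the range of the afternoon. At 7 h the libraries had 235, 236, 165 and 143 CPM, and at 10.5 h 139, 87.7, 112 and 88.2 CPM. At dusk they had 133, 72.4, 74.5 and 72.6 CPM, the lowest mean of the day at 88.2 ± 30.1 CPM. Dusk replicate 1 stood apart from the other dusk libraries, which lay within 72.4 to 74.5 CPM. The night libraries had 139, 120, 90.4 and 69.2 CPM (14 h), 88.0, 130, 117 and 72.6 CPM (17.5 h) and 239, 222, 130 and 171 CPM at 21 h. The means from 10.5 to 17.5 h all overlapped in their libraries, and the mean at 21 h (190 ± 49.4 CPM) was close to that at 7 h (195 ± 47.9 CPM). The change over the 8 times had an adjusted p of 1.0e-04 in edgeR's quasi-likelihood test, and 66.1% of the variance of log2 CPM lay between times, against a median of 40.8% over all tested genes.

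GSA, which acts directly after HEMA1, ran the other way through the day. Its lowest values were at dawn, with 66.5, 67.8, 58.0 and 83.2 CPM (68.9 ± 10.5 CPM), and its highest at 10.5 h, with 130, 122, 149 and 118 CPM (129.7 ± 13.7 CPM). The libraries of these 2 times did not overlap, but the times were picked as the extremes of its means, which favours a gap. From 10.5 h to 14 h the means stayed between 119 and 129.7 CPM, and were then lower, with 104 ± 9.32 CPM (17.5 h) and 80.7 ± 10.4 CPM (21 h). Neighbouring times in the order of GSA levels differed by less than or about their spread, and only 7 h (94.9 ± 7.65 CPM) and 21 h, next to each other in that order, had libraries without overlap. GSA was the most even of the 6 genes within a time, with an SD of 0.18 on the log2 scale against 0.52 for HEMA1. The change over the 8 times had an adjusted p of 2.1e-05 in edgeR.

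CHLH had the strongest rhythm of the 6 genes. Its libraries had 522, 1204, 774 and 311 CPM at dawn (703 ± 384 CPM), 765, 735, 858 and 464 CPM at 3.5 h and 512, 532, 476 and 377 CPM at 7 h. The 4 dawn libraries spread 3.87-fold, and dawn replicates 2 and 4 were the highest and the lowest for HEMA1 as well. By 10.5 h the level had dropped to 190, 131, 169 and 138 CPM and by dusk to 151, 99.5, 95.5 and 104 CPM. The lowest values came in the first hours of darkness, with 53.1, 44.6, 30.7 and 56.4 CPM at 14 h, and 72.5, 77.9, 77.96 and 60.5 CPM followed at 17.5 h. At 21 h, before dawn, the libraries were back at 434, 493, 342 and 327 CPM. Every library from dawn to 7 h and at 21 h lay above every library from 10.5 to 17.5 h, a split of times made by these same values. Of the variance of log2 CPM, 94.2% lay between times, and the change had an adjusted p of 5.2e-12 in edgeR.

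The other chelatase subunits moved little. CHLI had 180, 215, 211 and 104 CPM at 3.5 h (178 ± 51.4 CPM) and 134, 112, 106 and 82.8 CPM at dusk (108 ± 20.9 CPM). Replicate 4 of 3.5 h lay inside the dusk range, so these groups overlapped. The call over the 8 times was narrow for CHLI (edgeR adjusted p = 0.0479), and it was lost in 24 of 40 alternative fits, where adjusted p ran from 0.00296 to 0.203. CHLD ran against the light-time peak of its partners, with 59.1, 53.8, 64.6 and 46.0 CPM at 7 h (55.9 ± 7.93 CPM) and 115, 77.7, 77.5 and 88.4 CPM at 14 h (89.6 ± 17.5 CPM). All 4 libraries at 14 h were above all 4 at 7 h, but these are its highest and lowest times, a choice that favours a gap. The edgeR adjusted p over the 8 times was 0.0121 for CHLD, and 0.0546 without the libraries of replicate number 4.

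CHLM, the next enzyme after the chelatase, was low at dawn and high through the light hours. It had 9.10, 16.2, 11.5 and 11.2 CPM at dawn (12.0 ± 3.01 CPM), 34.8, 33.1, 28.1 and 14.4 CPM at 3.5 h and 35.6, 25.1, 36.2 and 24.2 CPM at 10.5 h (30.3 ± 6.50 CPM). The dawn and 10.5 h libraries did not overlap, while replicate 4 of 3.5 h lay within the dawn range. Dawn and 10.5 h are the extremes of its means, and picking them favours a gap. From 3.5 h to dusk the means stayed between 27.0 and 30.3 CPM, and they were lower through the night at 22.0 ± 6.90 CPM (14 h), 16.9 ± 1.70 CPM (17.5 h) and 14.8 ± 6.64 CPM (21 h). No neighbours in the order of its levels were free of overlap. The edgeR adjusted p over the 8 times was 9.7e-04.

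A single 24 h wave was then fitted to place each gene in the day. The morning genes peaked first: HEMA1 at 1.78 ± 0.58 h after dawn, CHLH at 2.67 ± 0.26 h and CHLI at 3.45 ± 0.93 h (± SE). CHLM followed at 8.80 ± 0.64 h, GSA at 11.7 ± 0.59 h and CHLD at 17.9 ± 0.71 h. The amplitude, the peak against the mean on the log2 scale, was 1.96 ± 0.13 for CHLH, 0.89 ± 0.12 for HEMA1 and 0.59 ± 0.10 for CHLM (± SE). For GSA it was 0.35 ± 0.05, for CHLI 0.31 ± 0.07 and for CHLD 0.29 ± 0.06. The CHLI amplitude was smaller with library totals alone (0.20) and with limma-trend (0.18). All 6 genes were called in edgeR with the highest adjusted p at 0.00161 (CHLI), where 47.4% of all tested genes were called. The wave took up 88.2% of the variance of CHLH over the libraries but 35.2% of that of CHLI and 43.7% of that of CHLD. One cycle was sampled and dusk was placed at 12 h. Over all alternative fits the peak of HEMA1 stayed within 1.499 to 1.95 h, of CHLH within 2.55 to 2.81 h and of CHLD within 17.2 to 18.4 h. That of CHLI ran from 2.92 to 3.74 h, of CHLM from 8.50 to 9.68 h and of GSA from 11.37 to 12.57 h.

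**Figure D2:**
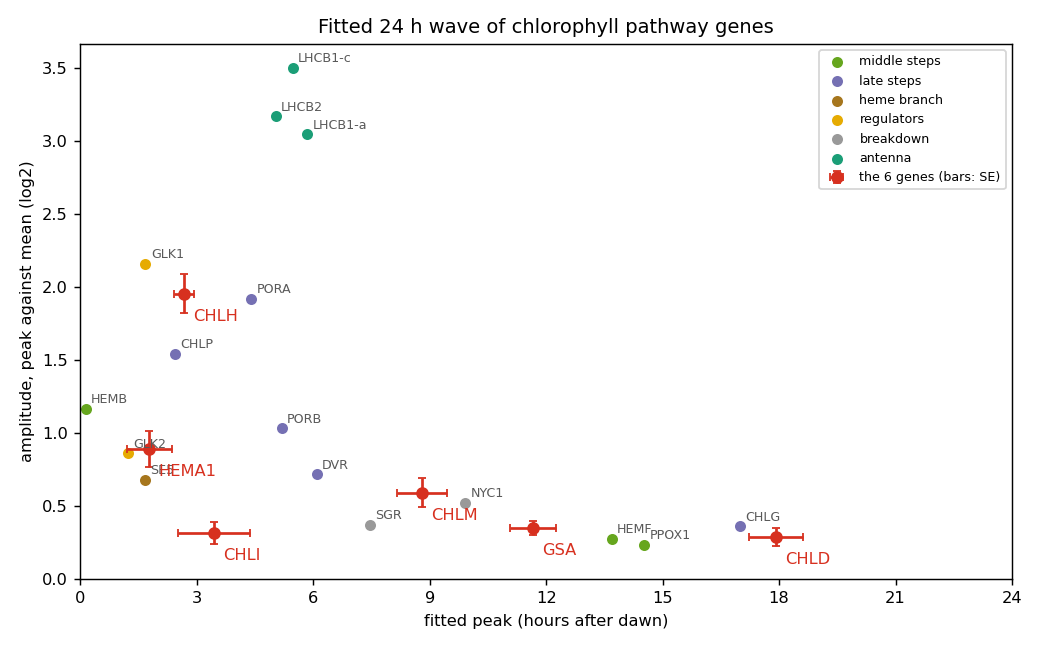
Fitted peak time (horizontal axis, hours after dawn) and amplitude (vertical axis, log2 of peak against mean) of a 24 h wave. Red points are the 6 genes with bars of 1 SE, and smaller points are other chlorophyll pathway and antenna genes that passed the test, coloured by list. HEMA1, CHLH and CHLI lie between 1.78 and 3.45 h, while CHLM, GSA and CHLD lie at 8.80, 11.7 and 17.9 h.

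Because chelatase works as a complex of 3 subunits, the ratio of the transcripts within each library was followed over the day. Such a ratio does not depend on how libraries are scaled, but it cannot be read as a ratio of molecules, since lengths are not corrected. CHLH/CHLI stood at 4.36 at dawn, 4.03 at 3.5 h and 3.41 at 7 h, and at 0.407 at 14 h (geometric means of CPM ratios). Its mean log2 value went from 2.13 ± 0.39 at dawn to -1.30 ± 0.38 at 14 h, and back to 1.67 ± 0.26 at 21 h (SD, n = 4). All libraries from dawn to 7 h and at 21 h were at 1.49 or above, and all others at 0.43 or below, with the times split as for CHLH. CHLH/CHLD went from 3.38 ± 0.17 at 3.5 h to -0.97 ± 0.31 at 14 h on the log2 scale. CHLD/CHLI moved the opposite way and less, from -1.38 ± 0.26 at 3.5 h to -0.32 ± 0.16 at 14 h, without overlap of the libraries. These were its lowest and highest times, a choice that favours such a gap. Thus all 3 subunit ratios differed over the 8 times.

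Another pair of ratios compares enzymes of neighbouring steps or the same branch. GSA/HEMA1 was lowest at dawn (-2.05 ± 1.16 on the log2 scale) and highest at dusk (0.48 ± 0.26). The dawn libraries ran from -3.08 to -0.45, and even the highest of them was below the lowest at dusk, 0.10, though picking the extreme times favours this. CHLM/CHLH was lowest at dawn (-5.72 ± 0.64) and highest at 14 h (-1.08 ± 0.51), a range of 4.64 on the log2 scale. Each of the 5 ratios had p = 1e-05 over the 8 times in a permutation test of the F statistic, the smallest that 100000 permutations can give, and 1e-05 after adjustment over the 5 ratios. The ranges of the other ratios were 3.42 for CHLH/CHLI, 4.36 for CHLH/CHLD, 1.05 for CHLD/CHLI and 2.53 for GSA/HEMA1. Within times, log2 CPM had an SD of 0.41 for CHLH and 0.30 for CHLI, but their ratio one of 0.25. For CHLD and CHLI the SDs were 0.22 and 0.30 and that of the ratio 0.17, whereas CHLH/CHLD, at 0.28, lay between its genes. The SD of CHLM/CHLH, 0.38, was just under those of its genes (0.39 and 0.41), and that of GSA/HEMA1, 0.54, above those of its genes (0.18 and 0.52).

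**Figure D3:**
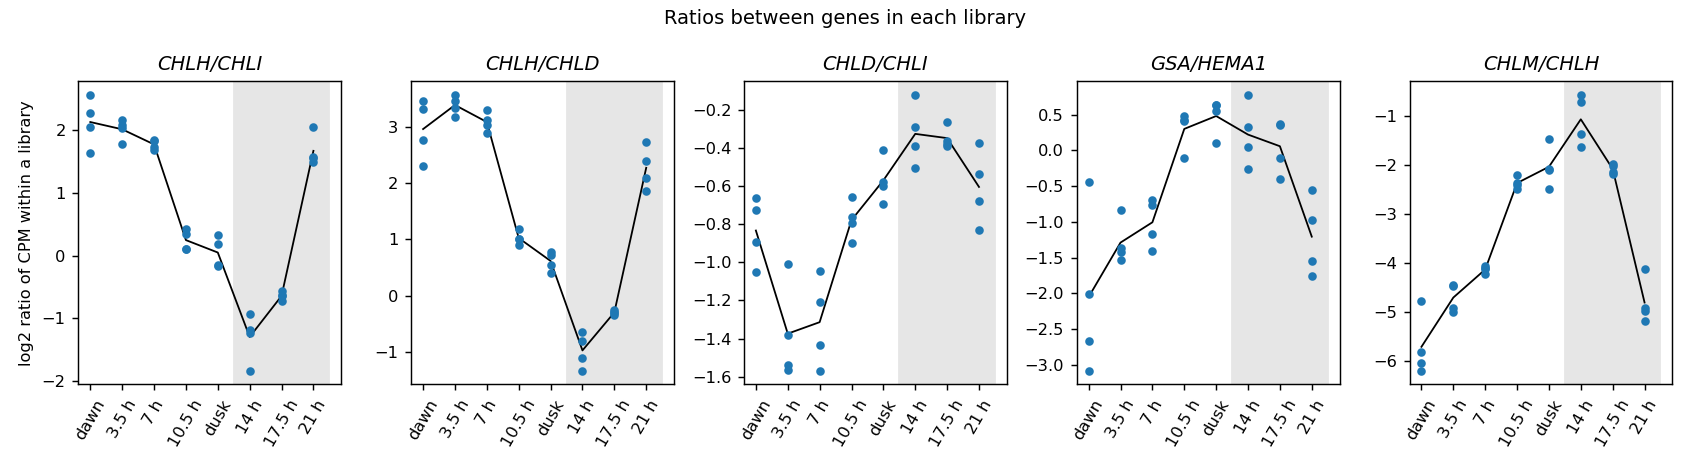
Log2 ratio of CPM between pairs of genes within each library (vertical axis) at the 8 times, one panel per pair with its own scale. Points are libraries, the line joins the means, and the grey band covers the 3 times after dusk. CHLH/CHLI and CHLH/CHLD fall to their lowest mean at 14 h (-1.30 and -0.97), where CHLD/CHLI and CHLM/CHLH have their highest (-0.32 and -1.08).

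The next question was in which interval each transcript moved. CHLH moved in 3 of the 8 intervals between neighbouring times. It fell by 1.60 ± 0.28 between 7 and 10.5 h (log2, ± SE, adjusted p = 4.8e-04) and by 1.28 ± 0.28 between dusk and 14 h (adjusted p = 0.0220). It rose by 2.47 ± 0.29 between 17.5 and 21 h, in darkness and before the dawn sample (adjusted p = 9.8e-07), with all 4 libraries at 21 h above all 4 at 17.5 h. The fall after dusk lost the threshold without dusk replicate 1, or without replicate 2 or 3 of 14 h (adjusted p from 0.0838 to 0.115). CHLM rose by 1.21 ± 0.27 between dawn and 3.5 h (adjusted p = 0.00397). GSA rose in the same interval by 0.53 ± 0.13 (adjusted p = 0.00804) and again by 0.45 ± 0.13 between 7 and 10.5 h (adjusted p = 0.0442). The second rise of GSA was lost in 28 of 40 alternative fits (adjusted p from 0.0151 to 0.170), and the first with scaling by library totals alone (0.0850) and with limma-trend (0.0578). A fall of GSA between 17.5 and 21 h did not pass in edgeR (-0.36 ± 0.13, adjusted p = 0.0837). It passed in 3 of 40 alternative fits: library totals alone (0.0125), limma-trend (0.00786) and without the 3 libraries least like their time (0.0471).

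HEMA1, CHLD and CHLI changed in no single interval by these edgeR tests. HEMA1 had a difference of 0.90 ± 0.34 between 17.5 and 21 h with an adjusted p of 0.105, and it passed in 4 of 40 alternative fits, those without dawn replicate 4 or replicate 3 of 21 h among them. CHLD passed from dawn to 3.5 h (-0.41, adjusted p = 0.0298) and from 7 to 10.5 h (0.45, adjusted p = 0.0366) with library totals alone, and in both with limma-trend. In all, 6 of 48 pairs of gene and interval were called. The intervals differ much in how many genes they move. From dawn to 3.5 h, 2 of the 6 genes rose, against 11.5% of tested genes called, 5.47% higher and 6.04% lower. From 7 to 10.5 h GSA rose and CHLH fell, against 4.15% called, 1.81% higher and 2.34% lower. From dusk to 14 h CHLH fell, against 0.625% called, 0.0349% higher and 0.590% lower. From 17.5 to 21 h CHLH rose, against 8.57% called, 5.04% higher and 3.53% lower. None of the 6 was called by edgeR, DESeq2 or limma-trend in the other 4 intervals. Those were 3.5 to 7 h (8.62% of tested genes called, 5.29% higher and 3.33% lower), 10.5 h to dusk (0.186%, 0.0349% higher and 0.151% lower), 14 to 17.5 h (1.37%, 0.862% higher and 0.512% lower) and 21 h to dawn (0%). At an unadjusted p under 0.05 in edgeR, 1, 0, 1 and 2 of the 6 genes stood in these intervals. Of the 25766 tested genes, 5694, 2929, 5210 and 1778 had such a p in these intervals, in the same order. Between 21 h and dawn DESeq2 called 27 genes.

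Dusk was then set against dawn. Of the 6 genes 4 differed, where 22.1% of tested genes did. HEMA1 and CHLH were lower at dusk, by -1.91 ± 0.35 and -2.64 ± 0.29 (log2, ± SE, edgeR adjusted p = 1.8e-04 and 8.1e-08), among 10.6% of tested genes called lower. GSA and CHLM were higher at dusk, by 0.80 ± 0.13 and 1.18 ± 0.27 (adjusted p = 4.1e-05 and 0.00201), among 11.5% called higher. For CHLD the difference was -0.17 ± 0.16 (adjusted p = 0.5) and for CHLI -0.45 ± 0.20 (adjusted p = 0.120), which passed in 2 of 40 alternative fits, the one without dawn replicate 4 (0.0347) among them. The first enzyme of the path and the large chelatase subunit were thus low when the second enzyme and the methyltransferase were high. The median difference of the 6 genes was -0.31, against 0.04 over all tested genes. Of the genes called, 51.9% were higher at dusk, and 63.9% with library totals alone, a scaling that moved the median of all genes from 0.04 to 0.16.

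The 3 night times (14, 17.5 and 21 h) were also set against the 3 light times (3.5, 7 and 10.5 h). Of the 6 genes 4 differed, where 26.4% of tested genes did. CHLH was lower at night by -1.77 ± 0.16 (log2, ± SE, edgeR adjusted p = 3.1e-09), CHLM by -0.68 ± 0.15 (0.00145) and CHLI by -0.36 ± 0.12 (0.0243), among 14.0% of tested genes called lower. CHLD was the one gene higher at night, by 0.40 ± 0.09 (adjusted p = 0.00154), among 12.3% called higher. HEMA1 (-0.45 ± 0.20, adjusted p = 0.0914) and GSA (-0.10 ± 0.07, adjusted p = 0.352) did not pass. HEMA1 passed in 3 of 40 alternative fits, those without dawn replicate 4 (0.0392) or replicate 4 of 3.5 h (0.0490) among them. The mean of the night times takes in 21 h, where HEMA1 and CHLH were already high. The call of CHLI was lost with library totals alone (0.0508), with limma-trend (0.0742) and without replicate 2 or 3 of 3.5 h (0.0582 and 0.0570). The median of the 6 genes was -0.41 and that of all tested genes -0.02. Of the genes called, 46.7% were higher at night, and 67.3% with library totals alone.

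The rest of the pathway gives the setting for these 6 genes. Its genes were taken from a list of which 19 of 35 symbols could be placed by the reference table, and only these are used. In the middle of the path 3 of 5 changed over the 8 times, where 42.1% of all tested genes did. HEMB, which joins 2 molecules of 5-aminolevulinate, was high before and at dawn: its 21 h mean was 324 ± 52.2 CPM, its dawn mean 329 ± 90.1 CPM and its dusk mean 71.3 ± 7.10 CPM, with an adjusted p of 1.1e-13. It rose between 14 and 17.5 h (0.84 ± 0.15, adjusted p = 0.00302) and between 17.5 and 21 h (1.21 ± 0.15, adjusted p = 2.7e-06). HEMF and PPOX1, the oxidases before protoporphyrin IX, had shallow courses with their highest means at 14 h (192 ± 45.7 CPM) and dusk (54.6 ± 5.72 CPM). HEMC and HEMD, which act between HEMB and these oxidases, did not pass (adjusted p = 0.341 and 0.0551). None of the 5 was called between night and day in edgeR, and none had an unadjusted p under 0.05 there apart from PPOX1 (0.0280).

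After CHLM, all 5 late genes changed over the 8 times, beside the same 42.1% of all tested genes. CHLP, the geranylgeranyl reductase that makes the phytyl tail, had a mean of 630 ± 140 CPM in the 3.5 h libraries, against 72.1 ± 9.82 CPM in those of 14 h, and peaked at 2.44 h, near CHLH. PORA and PORB, which reduce protochlorophyllide in the light, were highest at 3.5 h (440 ± 272 CPM) and 7 h (265 ± 49.6 CPM) and lowest at 14 h (31.6 ± 16.2 and 59.7 ± 1.80 CPM). DVR, the divinyl reductase, had 31.3 ± 2.74 CPM at 7 h and 10.8 ± 2.73 CPM at 14 h. CHLG, the chlorophyll synthase, was the exception: it peaked at 17.0 h and was higher at night by 0.48 ± 0.06, as CHLD was, while the other 4 late genes were lower. The median night difference of the late genes was -1.29, against -0.41 for the 6 genes. Among regulators, GLK1 and GLK2, GARP transcription factors that act on chloroplast genes in leaves, both changed. GLK1 had 93.0 ± 53.0 CPM (dawn), 78.5 ± 19.9 CPM (7 h), 10.7 ± 2.48 CPM (10.5 h) and 7.27 ± 2.89 CPM (14 h), and rose by 2.49 ± 0.33 between 17.5 and 21 h (adjusted p = 5.8e-06). SE5, the heme oxygenase, changed too, as did 2 of 3 breakdown genes, again beside 42.1% of all tested genes (SGR and NYC1, and not NOL with adjusted p = 0.328). The 3 antenna genes that could be placed, all of photosystem II, had night differences between -5.34 and -4.48, deeper than that of any of the 6 genes.

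**Figure D4:**
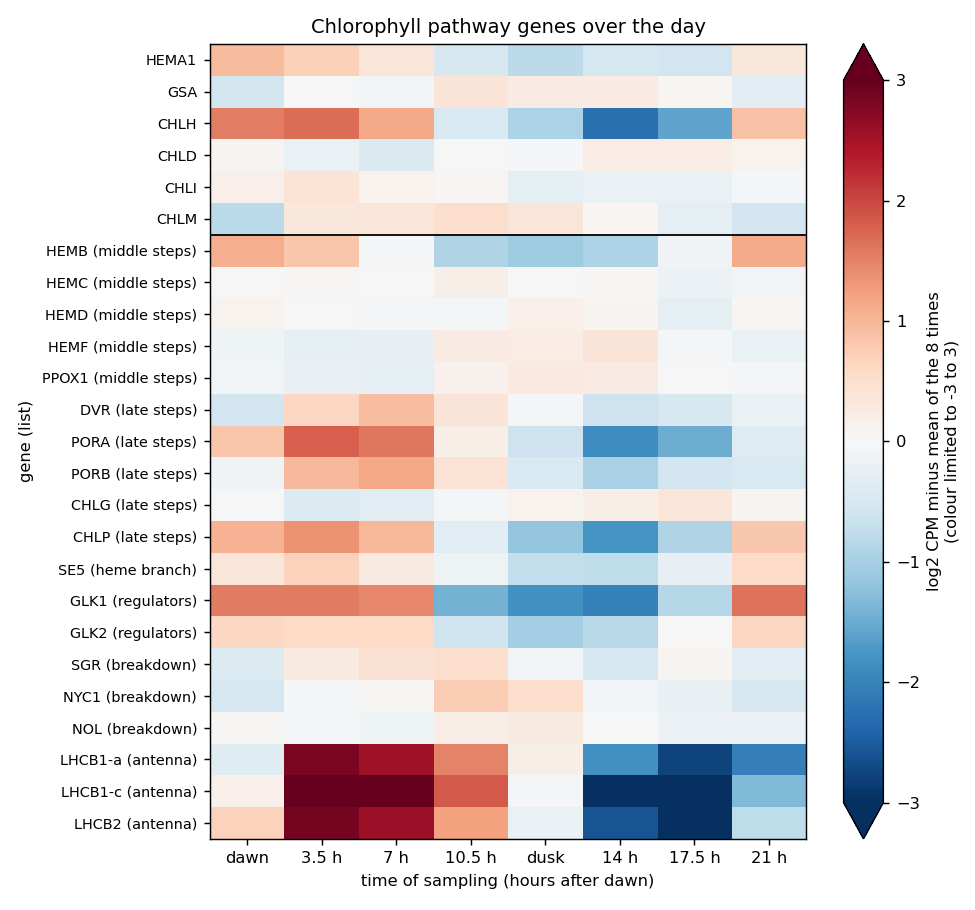
Log2 CPM of each gene at each time minus its mean over the 8 times (colour, limited to -3 to 3), with the 6 genes above the line and the other pathway and antenna genes below it, by list. HEMA1, CHLH, HEMB, CHLP and GLK1 are above their mean at 21 h and dawn, and CHLH and CHLP are highest at 3.5 h. The antenna genes are below their mean at 21 h and highest at 3.5 and 7 h. CHLD and CHLG have their highest colours after dusk.

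To ask which genes of the set follow each other, the 8 time means of log2 CPM were correlated between genes, among 14608 genes with a mean of at least 10 CPM. These correlations describe 8 points each, all from the same libraries. HEMA1 and CHLH had r = 0.92, CHLH and CHLI 0.85 and HEMA1 and CHLI 0.83, so these 3 formed a morning group. GSA and CHLM had r = 0.81. GSA went against HEMA1 (r = -0.83) and CHLH (-0.70). CHLD went with none of the other 5, with r between -0.59 (CHLH) and 0.02 (GSA). None of the 6 was among the 5 nearest genes of another. Seen from CHLH, HEMA1 ranked 229th and CHLI 635th of the other 14607 genes, while CHLP ranked 20th (r = 0.98) and GLK1 205th (r = 0.92). For HEMA1, GLK1 ranked 159th (r = 0.94) and CHLP 252nd (r = 0.92). CHLD was nearest in this set to CHLG (r = 0.87, rank 262). The 5 nearest genes of every member had r of at least 0.968, and the files and the reference table pair no names with their identifiers. By location, the 3 chelatase genes all lie on chromosome 3, with HEMA1 on chromosome 10, GSA on 8 and CHLM on 6.

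Marker genes of pollen and of the tapetum, an anther layer, also differed between libraries. The summed level of 3 pollen MADS-box genes, whose symbols the reference table does not hold, ran from 1.23 to 31.7 CPM at dawn and from 5.55 to 71.2 CPM at dusk, and none of the 3 was at 0 throughout. The lowest dawn value was in replicate 4, which was also lowest for HEMA1, CHLH, CHLD and CHLI, and the highest in replicate 2, which was highest for these genes. GSA went the other way, with its highest dawn value in replicate 4 (83.2 CPM). The dusk library with 71.2 CPM was replicate 1, the one in which HEMA1 stood apart. It was also the highest at dusk for GSA, CHLH, CHLD and CHLI, but not for CHLM. Of the tapetum genes (7, of which 5 were placed by the reference table) none was at 0 throughout, and their sum was lowest at dawn in replicate 4 (8.25 CPM) and highest at dusk in replicate 1 (60.8 CPM). Median sums were lowest at 17.5 h (3.95 CPM for pollen, 16.9 CPM for tapetum) and highest at 14 h for pollen (37.7 CPM) and at 10.5 h for tapetum (47.1 CPM). A sum does not describe every gene of its list. Of the placed tapetum genes, TDR went with the sum (2.15 ± 2.69 CPM at 17.5 h, 16.9 ± 20.2 CPM at 10.5 h). UDT1 went against it (4.21 ± 0.87 and 2.64 ± 0.55 CPM). At 10.5 h, where the pollen sum spread most (1.38 to 94.2 CPM), the lowest library in both sums, replicate 3, was the highest for GSA, CHLD, CHLI and CHLM. The highest in both sums, replicate 1, was the highest for HEMA1 and CHLH. The part of this in the results above was not tested. Another fit left out the 3 libraries least like their time (dawn replicate 4, dusk replicate 3 and replicate 3 of 21 h). These were picked by their correlation with their own time and not by marker level, and dusk replicate 1 stayed in. The fit therefore does not test the part of the markers. In it the dusk differences from dawn were -2.13 for HEMA1, -2.83 for CHLH, 0.90 for GSA and 1.00 for CHLM, all called.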

How the data were processed

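The submitters' processing notes name build IRGSP-1.0 and the tools HTSeq 0.6.0 and TopHat2. How strand was handled in counting is not given in the sources used here, so reads of overlapping antisense genes may be included. The authors deposited whole-number counts per gene, with totals of 10.8 M to 43.9 M per library, and CPM equal to count over library total. Poly(A) RNA was taken on oligo(dT) beads, per the labels' protocols.

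Counts were tested with edgeR 4.0.16 (glmQLFit, glmQLFTest, R 4.3.3) with TMM factors, filterByExpr, 1 mean per time over all 32 libraries and Benjamini-Hochberg adjustment at 0.05 over 25766 genes. The wave fit used cosine and sine terms of 24 h. Standard errors are the difference over the square root of F, and for peaks and amplitudes come from least squares on log2 CPM (prior count 2). Between-gene ratios used 100000 permutations. The procedure was tested on simulated data. Alternatives included DESeq2 1.42.0, limma 3.58.1 on log2 of deposited CPM plus 1, other scaling, no filter and each library left out.

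The genes and lists were chosen with earlier results of these data known. Named genes are the 6 genes and, for each other list, up to 3 with the lowest adjusted p over time plus any that did not pass. PORA and CHLG were singled out after their values were seen. Symbols were placed by chromosome and gene order within 2% in the table of assembly ASM3414082v1: 5 of the 6 (HEMA1 as GluTR), but CHLM is not in that table and its name was not checked. FC1 stood elsewhere there and was dropped. Other pathway genes without a placed symbol are not analysed here; marker sums include 5 such genes (3 pollen, 2 tapetum).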

Additional observations from a re-analysis of the deposited data

Results flagged for a closer look

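In 3 of 48 groups of 4 libraries (each gene at each time), one library lay far from the other 3, by a gap test on log2 CPM that flags about 5% of groups by chance. HEMA1 stood at 133 CPM in dusk replicate 1 and at 72.4 to 74.5 CPM in the other dusk libraries. CHLD stood at 51.6 CPM in replicate 4 of 3.5 h, against 69.1 to 72.5 CPM. CHLI stood at 146 CPM in replicate 1 of 21 h, against 116 to 119 CPM.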

How the results depend on the processing

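No called difference changed sign, and the counts of the 6 genes called stayed within 1.5 times their value in every alternative run. Leaving out 1 library at a time gave 5 to 6 of the 6 genes over the 8 times, 6 for the wave, 4 to 5 at dusk against dawn, 3 to 5 at night against day and 4 to 7 over the intervals. Of the 25766 tested genes these fits called 9830 to 12055 over the 8 times and 11652 to 12645 for the wave. They called 4330 to 6757 at dusk against dawn and 6146 to 7181 at night against day, with 7095 to 10673 calls over the intervals. The ranges of the ratios were then 3.24 to 3.59 (CHLH/CHLI), 4.24 to 4.46 (CHLH/CHLD), 0.99 to 1.17 (CHLD/CHLI), 2.19 to 3.07 (GSA/HEMA1) and 4.47 to 4.95 (CHLM/CHLH). CHLI lost its call over time in 24 of 40 alternatives. Of these 40 alternatives, 2 were added after seeing the data. Without the libraries of replicate number 4, 5 of the 6 changed over time and CHLD missed at 0.0546, and without the 3 libraries least like their time all 6 did. The share of all tested genes called over time in these 2 fits is not given here. It was 42.1% in the edgeR fit to all 32 libraries, so these counts say little about the 6 genes in particular. DESeq2 called 328 genes from 10.5 h to dusk, 327 from dusk to 14 h and 1284 from 14 to 17.5 h, where edgeR called 48, 161 and 354. With library totals alone the share of calls that were higher moved from 47.5 to 30.1% (dawn to 3.5 h), from 61.4 to 72.6% (3.5 to 7 h), from 18.8 to 40.7% (10.5 h to dusk) and from 58.8 to 33.3% (17.5 to 21 h). Without the 3 least typical libraries, 4474 genes were called from 17.5 to 21 h, against 2208, 563 against 354 from 14 to 17.5 h, and 27 against 48 from 10.5 h to dusk, where limma-trend gave 28, library totals 27, the replicate block 76 and the fit without number 4 gave 20. Replicate numbers were not taken to pair the samples, since only 55 of 112 same-numbered pairs had correlated deviations above 0.1 and 9 of 32 libraries went best with their own number. The mean correlation was 0.0608 over same-numbered pairs and -0.0141 between different numbers. It was 0.186 for number 4 and between -0.0494 and 0.0677 for the others. The main fit and the ratio permutations thus leave out any shift shared by a replicate number, such as that of number 4 described below. The replicate block gave 6, 6, 5, 5 and 7 calls among the 6 genes (over time, wave, dusk, night, intervals) against 6, 6, 4, 4 and 6 without it. Of all tested genes it called 5808 at dusk against dawn and 7201 at night against day, against 5694 and 6792 without it. From 17.5 to 21 h it called 2405 genes against 2208, and from dawn to 3.5 h 3270 against 2966. From 7 to 10.5 h it called 1177 against 1069, and from dusk to 14 h 198 against 161. Over time and for the wave its share of all tested genes is not given here. Without the block those shares were 42.1% and 47.4%. The block added CHLI at dusk against dawn (edgeR adjusted p = 0.0437), HEMA1 at night against day (0.0301) and HEMA1 from 17.5 to 21 h (0.0335). It could not move the ranges of the ratios, since each replicate number occurs once at each time.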

Other observations

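Libraries with replicate number 4 tended to be low in these genes. At all 8 times the replicate 4 library was below the mean of its time for HEMA1, CHLI and CHLM, which is 3 of the 6 genes, against 4.44% of all tested genes. For numbers 1, 2 and 3 that share of all tested genes was 0.314, 0.338 and 0.144%. For CHLH it was above that mean at 1 time, for CHLD at 2 and for GSA at 3. The mean deviation over the 8 times was -0.50 on the log2 scale for HEMA1, -0.33 for CHLI, -0.32 for CHLM, -0.29 for CHLH, -0.18 for CHLD and -0.04 for GSA. The 5 late genes had a median of -0.34, with 2 of them below at all 8 times, and the 3 antenna genes a median of -0.63. The median over all tested genes was -0.01. For replicate number 1 no gene of the 6 had a mean deviation below 0. The labels do not say what a replicate number shares across times, this pattern was noticed in the data, and its source was not tested.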
